A study of Homo sapiens with 8 samples.

Results

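The zinc finger genes of human chromosome 19 were followed in exonic counts of factory RNA-Seq libraries of IMR90 fibroblasts under ICM. They were taken as every gene whose symbol is ZNF, a number and at most 1 letter, and whose exons all lie on chromosome 19 of hg19, and 258 of the 28265 genes in the count tables met this rule. Another 273 genes with such a symbol lie on other chromosomes, and 1511 other genes lie on chromosome 19. IMR90 is a human lung fibroblast line, used here at low passage, and ICM (inflachromene) is a small molecule that binds the chromatin proteins HMGB1 and HMGB2 and was given to induce a senescence-like state. The libraries were made by factory RNA-Seq, a protocol that enriches RNA still held in transcription factories, followed by poly(A) selection per the labels. The counts cover exons, so spliced RNA can add to them, while the paper took nascent changes from intronic reads of such libraries. The values here are RNA levels and are not set beside the nascent changes of the paper. There were 4 groups of 2 libraries: low-passage cells labelled young with no treatment named (called control here), low-passage cells after 3 days of ICM, low-passage cells after 6 days of ICM, and low-passage cells labelled MetaICM, a treatment that the labels do not explain further and for which they give no time. The labels name no engineered allele or transgene, and all groups came from the same line. The labels do not say that the 2 libraries of a group came from separate cultures, so p-values measure the spread between libraries, which may be technical.

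Zinc finger proteins of this class bind DNA through tandem Cys2-His2 fingers, and most of those encoded on chromosome 19 also carry a KRAB domain. KRAB recruits the co-repressor TRIM28 (KAP1), which in turn brings the H3K9 methyltransferase SETDB1 and HP1 proteins, so that the bound locus is silenced. The genes arose by repeated tandem duplication and lie in clusters of close relatives, and many of the proteins recognise transposable elements: ZNF91 represses SVA elements and ZNF93 represses LINE-1 elements. ZNF274, itself encoded on chromosome 19, binds the 3' ends of zinc finger genes there and recruits SETDB1 to them.

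Libraries held 12095123 to 23166405 counted read pairs, and 0.357% to 0.453% of them fell on the 258 genes. Of the 10 fibroblast markers, all were found in the tables, and CD3E, a T cell marker, had no count in any library. The summed level of these fibroblast markers was 54000 to 60600 CPM (counts scaled to a common library size) in control, 26100 to 27700 after 3 days, 21000 to 21100 after 6 days and 34800 to 37700 in MetaICM. FN1 alone had 38100 and 32100 CPM in control, so the sum follows it closely, and S100A4 had 4 to 19 counts in a library. The fall under ICM went beyond FN1. At 3 days 7 of the 10 markers were lower than in control and 0 higher, with a median log2FC of -0.88. At 6 days 6 of the 9 tested were lower and 0 higher, with a median of -0.92. Of all genes tested, 13.2% and 17.2% were lower at these times. Of the 9 tested in MetaICM against control, VIM was higher and FN1 lower, with a median log2FC of -0.07. The summed level of 5 leukocyte markers was 4.51 to 6.19 CPM in control, 16.7 to 21.6 after 3 days, 18.0 to 20.9 after 6 days and 13.2 to 13.5 in MetaICM, and CD68 among them was higher than in control at 3 days (log2FC 1.92), at 6 days (1.9) and in MetaICM (1.41). That of 6 epithelial markers was 4.1 to 5.77 CPM in control, 0.604 to 1.4 after 3 days, 0.808 to 0.956 after 6 days and 7.91 to 7.94 in MetaICM, with KRT19 lower at 3 days (log2FC -3.11) and 6 days (-4.37). That of 4 endothelial markers was 3.36 to 4.23 CPM in control, 5.72 to 5.85 after 3 days, 6.37 to 6.68 after 6 days and 2.06 to 2.88 in MetaICM. Of 6 genes that follow the cell cycle, the cycling genes MKI67, TOP2A, CDK1, CCNB1 and HMGB2 were lower and the cycle inhibitor CDKN1A higher after both 3 and 6 days than in control. In MetaICM, 2 of them (MKI67 and TOP2A) were lower and CDKN1A was higher than in control. The part of these shifts in the results on the zinc finger genes was not tested.

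Along the chromosome the genes fell into 9 blocks of at least 5 members, separated by gaps of more than 1 Mb, with 11 genes outside them. From the end of the short arm they held 5 genes (block 1, 2.8 to 2.9 Mb of hg19), 16 (block 2, 7.1 to 9.9 Mb), 27 (block 3, 11.6 to 12.7 Mb) and 39 (block 4, 19.8 to 24.3 Mb, next to the centromere). On the long arm followed 6 genes (block 5, 35.0 to 35.5 Mb), 27 (block 6, 36.7 to 38.3 Mb), 24 (block 7, 44 to 45.6 Mb), 43 (block 8, 52.1 to 54.1 Mb) and 60 (block 9, 56.0 to 59.0 Mb). Block 4 holds the relatives of ZNF91 and ZNF93, and its exons had the lowest median GC content of the 9 blocks, 37.3%, against 40.6% to 45.9% in the others.

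Most of the genes were detected in IMR90. In each library, 237 to 241 of the 258 had at least 10 counts, and 236 passed the filter on low counts in all 5 comparisons. The 20 that passed in none had at most 14 counts in any library, and 8 of them lie in block 4 (ZNF826P, ZNF208, ZNF676, ZNF729, ZNF98, ZNF99, ZNF723 and ZNF728). Per kilobase of exon, the mean level over the 8 libraries ran from 0.000761 CPM per kb for ZNF536 to 25.9 CPM per kb for ZNF460, with a median of 2.65. The member with the highest level per kilobase was ZNF77 in block 1 (2.02 CPM per kb), ZNF121 in block 2 (9.63), ZNF700 in block 3 (9.42), ZNF91 in block 4 (12.3), ZNF302 in block 5 (9.21), ZNF146 in block 6 (25.7), ZNF226 in block 7 (10.3), ZNF160 in block 8 (17.1) and ZNF460 in block 9 (25.9). ZNF460 and ZNF146, the leading pair, lay at 81.2 to 115 CPM and at 80.4 to 112 CPM over the 8 libraries, and both had their lowest levels in the MetaICM libraries.

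The summed level of all 258 genes was 4043 and 4428 CPM in the control libraries, 4103 and 4332 CPM after 3 days, 4176 and 4305 CPM after 6 days, and 3698 and 3616 CPM in MetaICM. The ICM libraries lay between the 2 control libraries, and both MetaICM libraries lay below the other 6. With 2 against 2 libraries an exact two-sided permutation test cannot go below p = 0.333, which is the value for MetaICM against control. In these bulk samples, fewer cells transcribing a gene and less RNA per cell cannot be told apart.

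The question of the time course was which genes change when cells are exposed to ICM. Called here means an absolute log2FC above 0.6 together with a Benjamini-Hochberg adjusted p below 0.05 in edgeR's quasi-likelihood test. After 3 days, 11 of 237 tested zinc finger genes were higher than in control (4.64%) and 24 lower (10.1%), where 8.85% and 13.2% of all genes tested were. After 6 days, 24 of 238 were higher and 24 lower (10.1% each), where 13.3% and 17.2% of all genes tested were. The median log2FC of the tested members was -0.008 at 3 days and 0.005 at 6 days, and that of all genes 0.009 and -0.001. Calls among the members were thus no more frequent than among all genes. Of the 24 lower genes at each time, 19 were lower at both. Of the higher genes, 8 were higher at both. None was called in opposite directions. Both comparisons share the control libraries, and the same overlap was not counted over all genes. The 3-day counts became 4 higher and 14 lower without 3-day replicate 1 and 7 higher and 15 lower without 3-day replicate 2. The 6-day counts became 16 higher and 12 lower without 6-day replicate 1 and 13 higher and 18 lower without 6-day replicate 2. With library totals in place of TMM factors, the 3-day split was 16 higher and 19 lower. The zinc finger genes on other chromosomes had 18 higher and 31 lower of 242 at 6 days, and the other genes of chromosome 19 had 122 higher and 129 lower of 820.

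**Figure D1:**
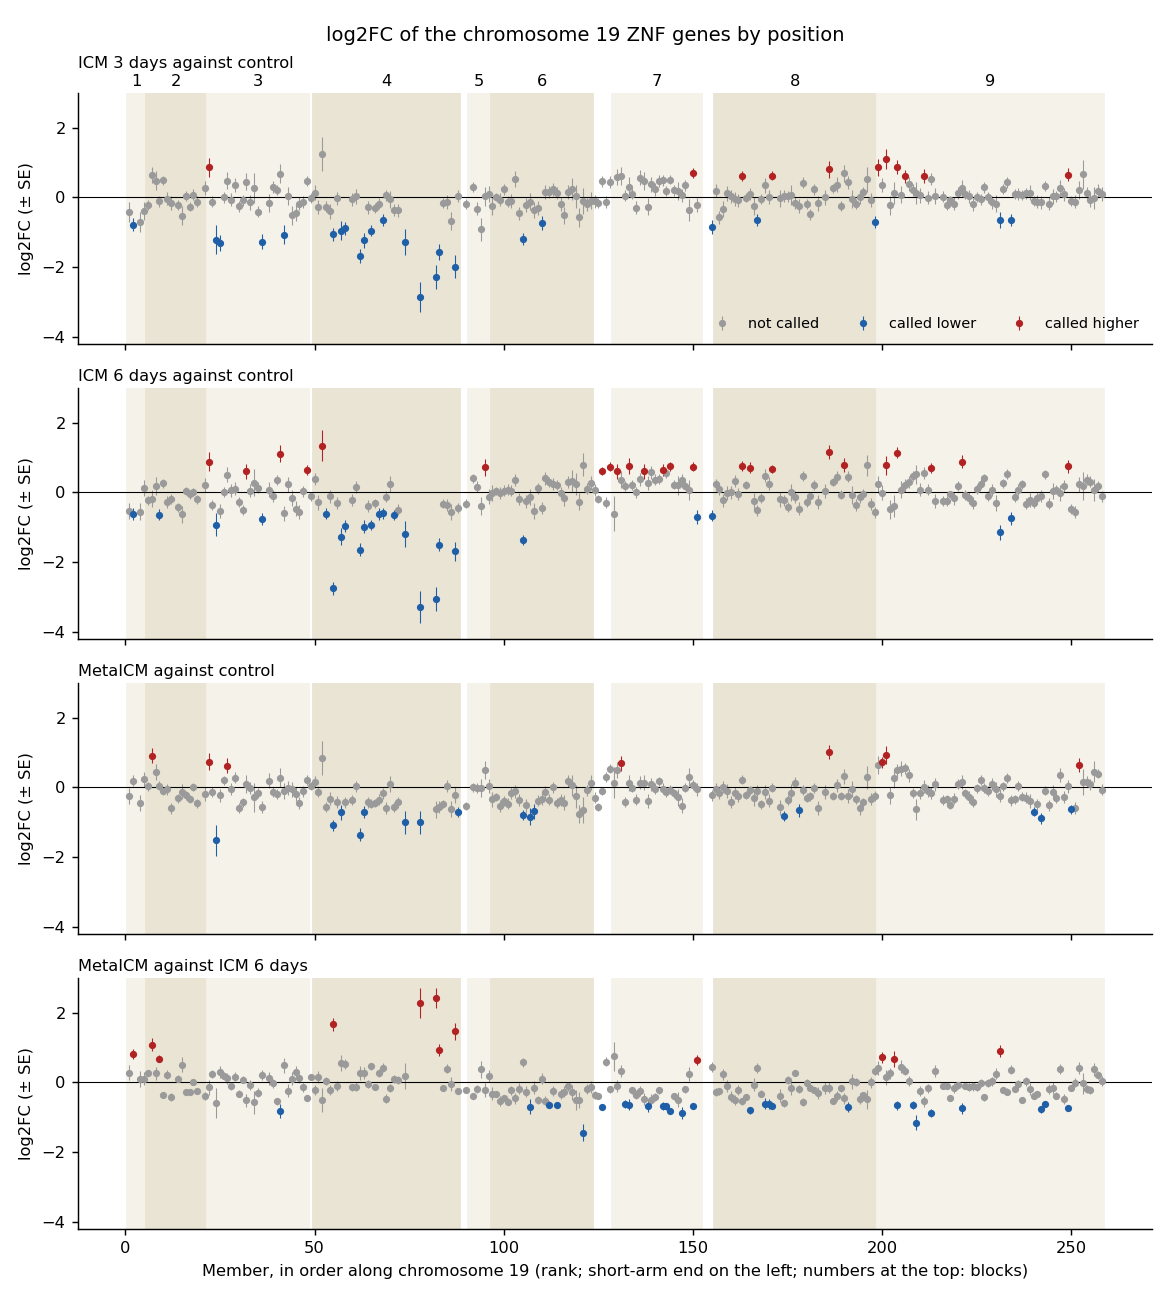
Each point is 1 zinc finger gene of chromosome 19, in order along the chromosome (x axis, rank from the short-arm end), with its log2FC and standard error (y axis) in 4 comparisons. Shading and the numbers at the top mark blocks 1 to 9, blue points were called lower and red points higher. Blue points gather in block 4 in both ICM panels, reaching -3.29 at 6 days, and in the last panel 5 genes of block 4 are red.

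The lower calls were not spread evenly. Block 4 held 12 of the 24 lower genes at 3 days, among 31 of its 39 genes that were tested (38.7%), and 15 of the 24 at 6 days (48.4%). Outside block 4, 12 of 206 tested genes were lower at 3 days (5.83%) and 9 of 207 at 6 days (4.35%). The median log2FC in block 4 was -0.36 at 3 days and -0.57 at 6 days, against 0.03 and 0.06 outside it. The summed level of its 39 genes was 532.8 and 616.8 CPM in control, 419.6 and 485.5 CPM after 3 days, 392.0 and 419.7 CPM after 6 days and 428.1 and 416.9 CPM in MetaICM, so that all 6 treated libraries lay below both control libraries. Of the 6 cell cycle genes, 5 were lower and CDKN1A was higher in the same comparisons. The median log2FC over all 6 was -3.4 at 3 days and -3.56 at 6 days, and their part in the values of block 4 was not tested. Because the block was singled out with the values known, its counts are a description without a test of the block against the rest.

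ZNF93, the LINE-1 repressor, fell in steps. The gene (chr19:20011755-20046384, forward strand, hg19) had 17.1 and 19.9 CPM in control, 8.51 and 9.31 CPM after 3 days, 2.85 and 2.66 CPM after 6 days and 8.29 and 9.31 CPM in MetaICM. Neither ICM time overlapped control or the other time, and the MetaICM libraries lay near the 3-day level. Its log2FC against control was -1.06 (SE 0.18, adjusted p = 0.00103) at 3 days and -2.75 (SE 0.20, adjusted p = 2.21e-06) at 6 days. Between the ICM times it was -1.69 (SE 0.21, adjusted p = 9.95e-06), and ZNF93 was the only member of block 4 called there.

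The largest falls belonged to genes with few counts. ZNF492 (chr19:22817126-22850473, forward strand) had 41 and 49 counts in control, 10 and 6 after 3 days, 5 and 7 after 6 days and 26 and 43 in MetaICM. All ICM libraries lay below all control and MetaICM libraries. Its log2FC was -2.85 (SE 0.44, adjusted p = 0.000437) at 3 days and -3.29 (SE 0.45, adjusted p = 0.00024) at 6 days. Of its exonic 50-base windows, 42.2% recur on chromosome 19. Reads placed at several sites were not counted, so the gene can lose reads there and its value is uncertain. ZNF730 (chr19:23299827-23330023, forward strand), with 3.47% of its windows repeated, had 83 and 87 counts in control, 20 and 24 after 3 days, 16 and 11 after 6 days and 72 and 97 in MetaICM. Here too the ICM libraries lay below those of control and MetaICM. Its log2FC was -2.29 (SE 0.35, adjusted p = 0.000392) at 3 days and -3.05 (SE 0.34, adjusted p = 6.12e-05) at 6 days.

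ZNF726 (chr19:24097688-24127516, forward strand) had 4.29 and 5.41 CPM in control, 1.02 and 1.46 CPM after 3 days, 1.56 and 1.43 CPM after 6 days and 4.57 and 3.8 CPM in MetaICM. ZNF724 (chr19:23404401-23433196, reverse strand) had 12.3 and 13.2 CPM in control, 3.67 and 5.12 CPM after 3 days, 4.47 and 4.57 CPM after 6 days and 7.84 and 9.53 CPM in MetaICM. ZNF66 (chr19:20959110-20992801, forward strand), with 21.3% of its windows repeated, had 14.1 and 14.8 CPM in control, 4.09 and 5.05 CPM after 3 days, 4.31 and 5.05 CPM after 6 days and 6.65 and 4.81 CPM in MetaICM. In all 3 genes the ICM libraries lay below both control libraries, and the MetaICM libraries overlapped control for ZNF726 alone. Their log2FC at 6 days was -1.69 (SE 0.28, adjusted p = 0.000818) for ZNF726, -1.51 (SE 0.18, adjusted p = 0.000114) for ZNF724 and -1.64 (SE 0.18, adjusted p = 6.42e-05) for ZNF66. Between 3 and 6 days it was 0.29, 0.05 and 0.04, and none was called.

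ZNF90, ZNF257, ZNF85, ZNF486, ZNF714 and ZNF738 were the other genes of block 4 that were lower at both times. ZNF506, ZNF708 and ZNF100 were lower at 6 days, and their 3-day log2FC was -0.27, -0.18 and -0.36. ZNF85, a KRAB zinc finger gene, had 11.9 and 11.2 CPM in control, 4.65 and 5.32 CPM after 3 days, 6.41 and 5.42 CPM after 6 days and 7.99 and 6.47 CPM in MetaICM. Both control libraries lay above the other 6, and the log2FC was -1.23 (SE 0.21, adjusted p = 0.001) at 3 days and -0.98 (SE 0.18, adjusted p = 0.00179) at 6 days. ZNF90 had a log2FC of -1.27 (SE 0.24, adjusted p = 0.00217) at 6 days and -0.95 (SE 0.27, adjusted p = 0.0211) at 3 days, where it was -0.72 without 3-day replicate 2 (adjusted p = 0.151). ZNF257, with 13 to 34 counts in a library, had -1.29 (SE 0.38, adjusted p = 0.0227) at 3 days and -1.19 (SE 0.37, adjusted p = 0.0241) at 6 days. It lost the 3-day call with -1.26 without 3-day replicate 1 (adjusted p = 0.164) and -1.31 without 3-day replicate 2 (adjusted p = 0.0968), and the 6-day call with -0.89 without 6-day replicate 1 (adjusted p = 0.229). With 1 library left out, the lower genes of block 4 numbered from 9 (without 3-day replicate 2) to 13 (without control replicate 1) at 3 days and from 10 (without 6-day replicate 1) to 18 (without control replicate 1) at 6 days.

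**Figure D2:**
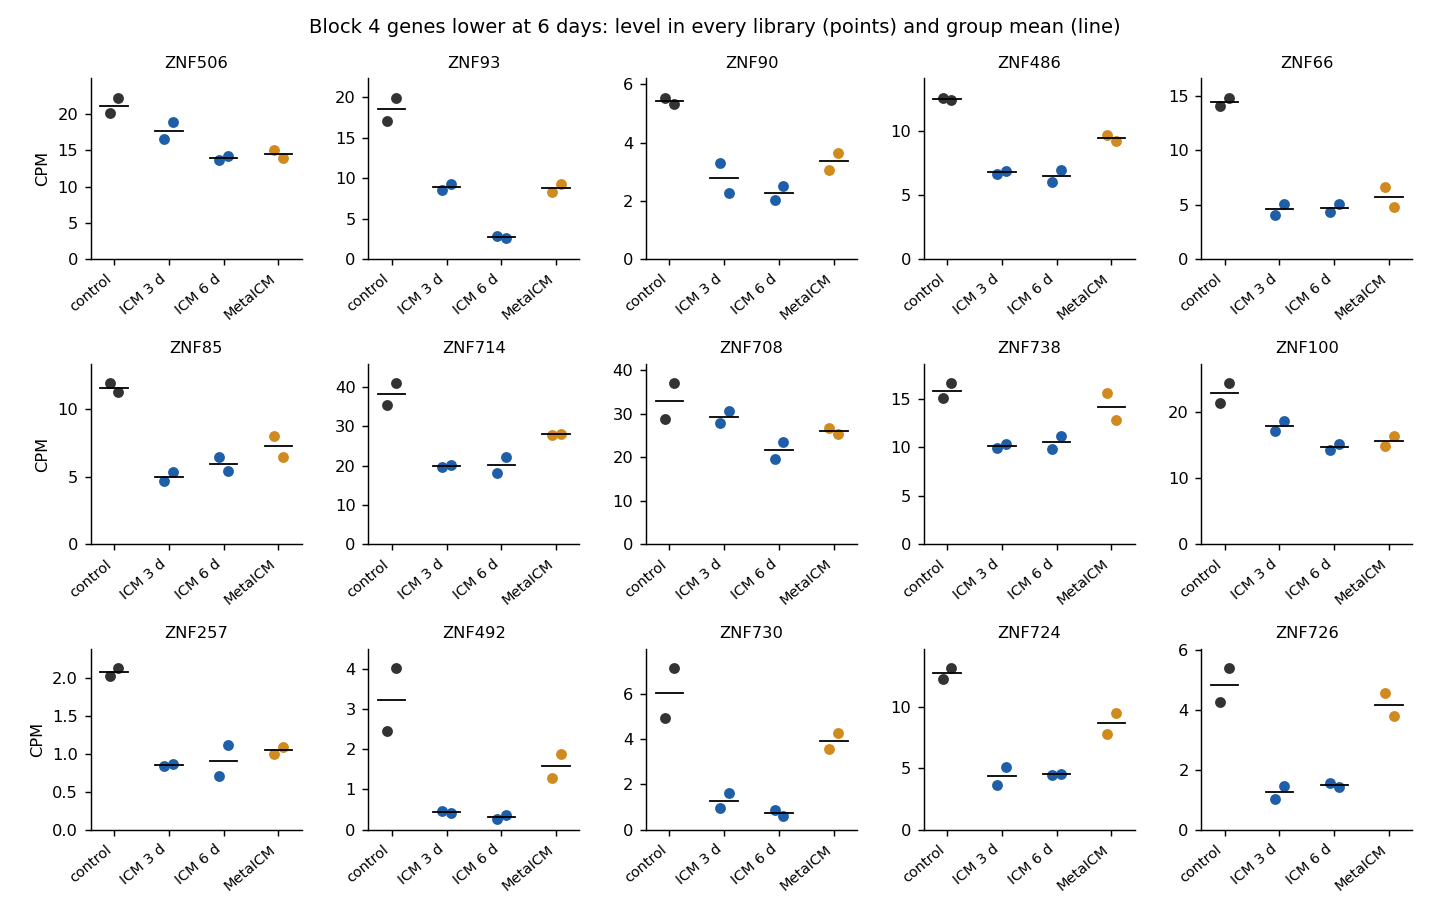
Level in CPM (y axis, from 0) of the 15 block 4 genes that were lower after 6 days than in control, in each of the 8 libraries (points), with the group mean as a line. In every panel both 6-day libraries lie below both control libraries, and ZNF93 shows its lowest level, 2.66 to 2.85 CPM, at 6 days.

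Several neighbours of these genes were not called. ZNF91, the SVA repressor and the member of the block with the highest level per kilobase (chr19:23540498-23578273, reverse strand), had 72.4 and 82.8 CPM in control, 63.6 and 76.2 CPM after 3 days, 62.1 and 63.3 CPM after 6 days and 57.6 and 55.1 CPM in MetaICM. The 3-day libraries overlapped control, and the 6-day and MetaICM libraries lay below it. The log2FC was -0.16 (SE 0.14, adjusted p = 0.443) at 3 days and -0.32 (SE 0.12, adjusted p = 0.0562) at 6 days, and 20.7% of its windows are repeated. At 6 days ZNF43 had -0.49 (SE 0.17, adjusted p = 0.0353), short of the log2FC cutoff, and ZNF675 had -0.36 (SE 0.18, adjusted p = 0.13). ZNF626 and ZNF737 had 0.15 (SE 0.17, adjusted p = 0.507) and -0.22 (SE 0.16, adjusted p = 0.299). The one higher gene of the block at 6 days was ZNF56, which had 12 and 5 counts in control, 24 and 26 after 3 days, 32 and 24 after 6 days and 16 and 30 in MetaICM and a log2FC of 1.34 (SE 0.43, adjusted p = 0.0295). It lost the call with DESeq2, and its value was 1.06 without control replicate 2 (adjusted p = 0.0924), 1.13 without 6-day replicate 1 (adjusted p = 0.242) and 1.55 without 6-day replicate 2 (adjusted p = 0.0709). At 3 days none of the 31 was higher by edgeR or DESeq2, where 8.85% of all genes tested were higher by edgeR. Of the 31, 1 had an unadjusted p under 0.05 with a log2FC above 0.

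The promoters of block 4 share sequence, in genes that were lower and in genes that were not. RefSeq promoter windows (GRCh38.p14, 250 bases before to 50 after the annotated start) were given for 216 of the 258 genes, 29 of them in block 4. The letters CCAATCAG, on either strand, occurred in 29 of 29 windows of block 4, in 28 of 187 windows of the other members (15%) and in 3.97% of the 35116 windows given. They extend the CCAAT box, which is the known binding site of the factor NF-Y, and 18 of the 29 windows held at least 2 CCAAT on the strand of the gene. The letters TTTGGCG, which match the start of TTTGGCGC, a known form of the site bound by E2F factors, occurred on either strand in 13 of 29 windows of block 4 (44.8%), 9 of 187 of the other members (4.81%) and 1.92% of all windows. In block 4 they began before the start in 11 of the 13. Both strings were chosen after the sequences and the values had been seen, and a match is no measure of binding.

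Within block 4, TTTGGCG, chosen with these values known, split the genes unevenly. Of the 13 genes that were lower at 6 days and had a window, 10 held it, and of the 14 tested and not lower, 2 did (ZNF430 and ZNF675). The 12 tested genes with the letters had a median log2FC of -1.01 at 3 days and -1.23 at 6 days, in a range of -3.05 to -0.36 at 6 days. The 15 without them had a median of -0.16 and -0.31, from -3.29 (ZNF492) to 0.38 (ZNF101). ZNF492, ZNF714 and ZNF85 were lower without the letters. Outside block 4, none of the 6 lower genes at 6 days with a window held them, and 3 of 18 higher members did. The genes share ancestry and sequence, so they are not independent cases, and no test was made.

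**Figure D3:**
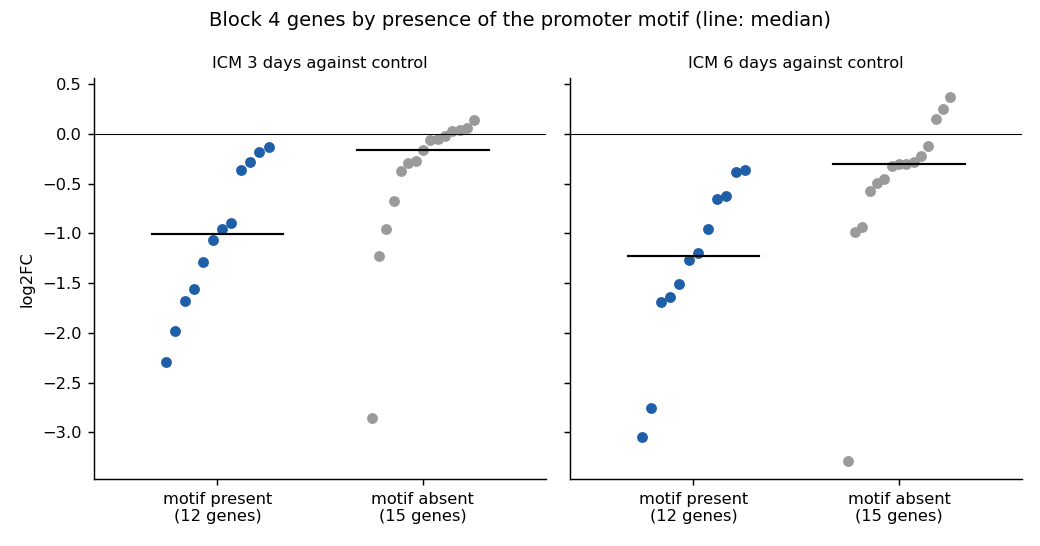
log2FC against control (y axis) of the 27 tested block 4 genes with a promoter window, at 3 days (left) and 6 days (right), by presence of TTTGGCG in the window. The letters were chosen with these values known. Lines are medians, -1.01 and -0.16 at 3 days and -1.23 and -0.31 at 6 days, and the ranges of both sets overlap.

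Stretches from 100 bases before to 20 bases from the start follow for 12 genes, 5' to 3' on the strand of the gene, because they let near relatives that fell be read against near relatives that did not. Capitals mark CCAAT and TTTGGCG on the strand of the gene. These 6 genes hold TTTGGCG and were lower at 6 days.
ZNF730: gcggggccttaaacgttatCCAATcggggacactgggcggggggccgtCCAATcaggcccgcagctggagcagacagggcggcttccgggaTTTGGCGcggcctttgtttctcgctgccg
ZNF93: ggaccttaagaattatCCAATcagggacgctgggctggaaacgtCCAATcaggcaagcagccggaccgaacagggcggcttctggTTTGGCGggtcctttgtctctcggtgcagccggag
ZNF726: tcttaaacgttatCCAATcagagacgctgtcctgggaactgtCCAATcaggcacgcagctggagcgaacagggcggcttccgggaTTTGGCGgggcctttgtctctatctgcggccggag
ZNF66: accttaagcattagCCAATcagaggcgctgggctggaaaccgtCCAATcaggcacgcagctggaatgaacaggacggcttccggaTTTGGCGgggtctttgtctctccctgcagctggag
ZNF724: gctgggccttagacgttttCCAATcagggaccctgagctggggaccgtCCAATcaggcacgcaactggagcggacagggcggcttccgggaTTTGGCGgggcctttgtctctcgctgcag
ZNF486: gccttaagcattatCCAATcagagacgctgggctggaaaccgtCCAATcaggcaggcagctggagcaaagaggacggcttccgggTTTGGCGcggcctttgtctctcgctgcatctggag
These 2 genes were lower without it.
ZNF492: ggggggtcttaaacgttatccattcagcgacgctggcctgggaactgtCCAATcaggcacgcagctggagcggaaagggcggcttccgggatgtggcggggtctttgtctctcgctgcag
ZNF714: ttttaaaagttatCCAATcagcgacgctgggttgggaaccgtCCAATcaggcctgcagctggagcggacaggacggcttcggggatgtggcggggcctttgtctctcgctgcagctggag
These 4 genes were not called at 3 or 6 days, the last of them with the letters.
ZNF626: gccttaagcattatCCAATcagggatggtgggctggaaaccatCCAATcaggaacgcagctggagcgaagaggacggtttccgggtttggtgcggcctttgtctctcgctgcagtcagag
ZNF737: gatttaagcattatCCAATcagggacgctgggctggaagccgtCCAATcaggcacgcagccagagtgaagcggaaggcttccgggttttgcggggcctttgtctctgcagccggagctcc
ZNF91: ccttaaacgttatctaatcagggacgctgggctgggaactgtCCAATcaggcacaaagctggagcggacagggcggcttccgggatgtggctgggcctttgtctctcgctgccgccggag
ZNF430: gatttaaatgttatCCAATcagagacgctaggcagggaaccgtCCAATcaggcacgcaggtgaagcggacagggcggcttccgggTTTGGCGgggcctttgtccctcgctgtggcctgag

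On GRCh38.p14 the stretches lie at ZNF730 chr19:23116925-23117044 (forward strand), ZNF93 chr19:19900846-19900965 (forward strand), ZNF726 chr19:23914786-23914905 (forward strand), ZNF66 chr19:20776204-20776323 (forward strand), ZNF724 chr19:23250375-23250494 (reverse strand), ZNF486 chr19:20167114-20167233 (forward strand), ZNF492 chr19:22634224-22634343 (forward strand), ZNF714 chr19:21082103-21082222 (forward strand), ZNF626 chr19:20661552-20661671 (reverse strand), ZNF737 chr19:20565762-20565881 (reverse strand), ZNF91 chr19:23395452-23395571 (reverse strand), ZNF430 chr19:21020557-21020676 (forward strand). Compared base by base without gaps, the stretches of ZNF486 (log2FC -0.95 at 6 days) and ZNF626 (0.15) were identical at 107 of 120 positions (89.2%), as were those of ZNF726 (-1.69) and ZNF91 (-0.32). The stretches of ZNF66 and ZNF486, both lower, were also identical at 107.

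Outside block 4, the lower genes were few and scattered. ZNF850 in block 6 (chr19:37234380-37263716, reverse strand) had 23.3 and 23.4 CPM in control, 11 and 9.5 CPM after 3 days, 8.62 and 9.67 CPM after 6 days and 12.6 and 14.7 CPM in MetaICM, and no treated library reached control. Its log2FC was -1.19 (SE 0.17, adjusted p = 0.000212) at 3 days and -1.37 (SE 0.15, adjusted p = 6.38e-05) at 6 days. ZNF530 in block 9 had 9.76 and 7.7 CPM in control, 5.25 and 5.98 CPM after 3 days, 3.93 and 4.09 CPM after 6 days and 7.64 and 7.39 CPM in MetaICM, with both 6-day libraries lowest. Its log2FC was -1.14 (SE 0.21, adjusted p = 0.00169) at 6 days. At 3 days it was -0.65 (SE 0.23, adjusted p = 0.0467), and this call was lost at -0.47 without control replicate 1 (adjusted p = 0.189), -0.55 without 3-day replicate 1 (adjusted p = 0.275) and -0.74 without 3-day replicate 2 (adjusted p = 0.0974). In block 3, ZNF823 was lower at 3 days (-1.30, SE 0.23, adjusted p = 0.00138) and did not pass at 6 days (-0.53, SE 0.20, adjusted p = 0.0506). The pseudogene ZNF788P was lower at both times, with a log2FC of -1.27 (SE 0.21, adjusted p = 0.000825) and -0.77 (SE 0.18, adjusted p = 0.00636), the latter lost at -0.74 without 6-day replicate 1 (adjusted p = 0.0632). The pseudogene ZNF833P had 34 and 26 counts in control, 13 and 19 after 3 days, 21 and 20 after 6 days and 22 and 9 in MetaICM. Its 3-day log2FC of -1.21 (SE 0.42, adjusted p = 0.05) stood just inside the threshold and was lost at -1.26 without control replicate 1 (adjusted p = 0.0592), -1.19 without control replicate 2 (adjusted p = 0.0669) and -0.71 without 3-day replicate 1 (adjusted p = 0.434). ZNF473, chosen after its values were seen, encodes a protein of histone pre-mRNA processing and was lower at both times at -0.85 (SE 0.20, adjusted p = 0.00731) and -0.67 (SE 0.16, adjusted p = 0.00775).

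The higher genes moved less. Block 7 held 6 of the 24 genes higher at 6 days (ZNF576, ZNF404, ZNF230, ZNF225, ZNF226 and ZNF229). They were 26.1% of its 23 tested genes, where 8.37% of the tested members outside it and 13.3% of all genes tested were higher. Like block 4, it was singled out with the values known, so its counts are a description without a test. The 6 became 2 without 6-day replicate 2, 3 without 6-day replicate 1 or control replicate 1, 3 with DESeq2 and 4 with the GC centring (the median log2FC of genes of like GC content subtracted). Its median log2FC was 0.27 at 3 days and 0.36 at 6 days, with 21 of 23 above 0 at 6 days, and ZNF180 was lower (-0.70, SE 0.20, adjusted p = 0.017). The summed level of the block was 276.4 and 277.2 CPM in control, 333.8 and 346.3 CPM after 3 days, 358.2 and 379.1 CPM after 6 days and 270.7 and 268.3 CPM in MetaICM, so all ICM libraries lay above the other 4. ZNF229 (chr19:44930423-44952766, reverse strand) had 22.6 and 20.9 CPM in control, 36.9 and 34.9 CPM after 3 days, 37.8 and 35.5 CPM after 6 days and 24 and 22.2 CPM in MetaICM. ZNF226 (chr19:44669215-44681838, forward strand), the member of the block with the highest level per kilobase, had 28.6 and 28.1 CPM in control, 39.3 and 42.1 CPM after 3 days, 44.4 and 51.7 CPM after 6 days and 28.7 and 26 CPM in MetaICM. In both genes the ICM libraries lay above all others. The log2FC of ZNF229 was 0.71 (SE 0.14, adjusted p = 0.00302) at 3 days and 0.74 (SE 0.13, adjusted p = 0.00125) at 6 days, and that of ZNF226 was 0.75 (SE 0.13, adjusted p = 0.00126) at 6 days. ZNF404 had 0.76 (SE 0.23, adjusted p = 0.022) at 6 days, lost at 0.47 without control replicate 1 (adjusted p = 0.0886), 0.76 without 6-day replicate 1 (adjusted p = 0.0891) and 0.77 without 6-day replicate 2 (adjusted p = 0.0787).

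In block 9, ZNF580 (chr19:56152368-56154836, forward strand) had 6.19 and 6.23 CPM in control, 11.5 and 11.5 CPM after 3 days, 13.7 and 14 CPM after 6 days and 9.58 and 8.05 CPM in MetaICM. All treated libraries lay above control, and the log2FC was 0.88 (SE 0.20, adjusted p = 0.00645) at 3 days and 1.15 (SE 0.17, adjusted p = 0.000437) at 6 days. In block 8, ZNF528 had 0.63 (SE 0.14, adjusted p = 0.00541) and 0.67 (SE 0.12, adjusted p = 0.0017), and ZNF432 had 0.61 (SE 0.15, adjusted p = 0.00816) and 0.76 (SE 0.14, adjusted p = 0.0014). Both stood near the cutoff at 3 days, where ZNF528 was 0.56 without control replicate 1 (adjusted p = 0.0037) and ZNF432 was 0.57 without control replicate 1 (adjusted p = 0.00571) and 0.55 without 3-day replicate 2 (adjusted p = 0.0854), and at 6 days ZNF528 was 0.60 without control replicate 1 (adjusted p = 0.00109). The pseudogene ZNF702P had 4.29 and 3.85 CPM in control, 6.65 and 7.71 CPM after 3 days, 9.1 and 9.35 CPM after 6 days and 8.83 and 7.91 CPM in MetaICM. No treated library overlapped control. Its log2FC was 1.16 (SE 0.20, adjusted p = 0.00104) at 6 days and 0.80 (SE 0.24, adjusted p = 0.0246) at 3 days, where the call was lost at 0.91 without 3-day replicate 1 (adjusted p = 0.0573) and 0.70 without 3-day replicate 2 (adjusted p = 0.134).

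ZNF274, which binds zinc finger genes themselves, had 25.4 and 15.9 CPM in control, 34.9 and 30.8 CPM after 3 days, 34.8 and 36 CPM after 6 days and 21.5 and 21.4 CPM in MetaICM. The control libraries stood far apart, and the ICM libraries lay above both. Its log2FC was 0.66 (SE 0.20, adjusted p = 0.0245) at 3 days and 0.76 (SE 0.19, adjusted p = 0.00852) at 6 days. The 3-day call was lost at 0.36 without control replicate 2 (adjusted p = 0.106) and 0.57 without 3-day replicate 1 (adjusted p = 0.149), and the 6-day call at 0.48 without control replicate 2 (adjusted p = 0.000571).

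Other higher genes at 3 days lost their calls when 1 library was left out. ZNF524 had 1.10 (SE 0.29, adjusted p = 0.0144) and was 0.88 without 3-day replicate 1 (adjusted p = 0.165). ZNF628 had 0.86 (SE 0.25, adjusted p = 0.022) and was 0.78 without 3-day replicate 1 (adjusted p = 0.156). ZNF653 had 0.86 (SE 0.28, adjusted p = 0.0393) and was 0.74 without control replicate 2 (adjusted p = 0.0951) and 0.66 without 3-day replicate 1 (adjusted p = 0.31). ZNF667 had 0.61 (SE 0.20, adjusted p = 0.0373) and was 0.57 without control replicate 2 (adjusted p = 0.0518), 0.74 without 3-day replicate 1 (adjusted p = 0.0759) and 0.48 without 3-day replicate 2 (adjusted p = 0.244). These 4 calls were also lost with DESeq2. At 6 days, ZNF563 (1.11, SE 0.24, adjusted p = 0.00464) and ZNF547 (0.88, SE 0.19, adjusted p = 0.00375) were called under every alternative tried. ZNF665 had 0.78 (SE 0.20, adjusted p = 0.0111) and was 0.78 without 6-day replicate 1 (adjusted p = 0.0716) and 0.79 without 6-day replicate 2 (adjusted p = 0.067). ZNF653 had 0.88 (SE 0.28, adjusted p = 0.0264) and was 0.61 without 6-day replicate 1 (adjusted p = 0.279). ZNF524 had 0.78 (SE 0.27, adjusted p = 0.0399) and was 0.65 without control replicate 1 (adjusted p = 0.129), 0.68 without 6-day replicate 1 (adjusted p = 0.246) and 0.88 without 6-day replicate 2 (adjusted p = 0.108). Of the named lower genes, 8 of 10 at 3 days and 9 of 10 at 6 days were called in every alternative testing them. ZNF492, counted among these at both times, was not tested under a filter of at least 10 counts in every library. Of the named higher genes, 2 of 10 and 5 of 10 were called under every alternative tried.

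**Figure D4:**
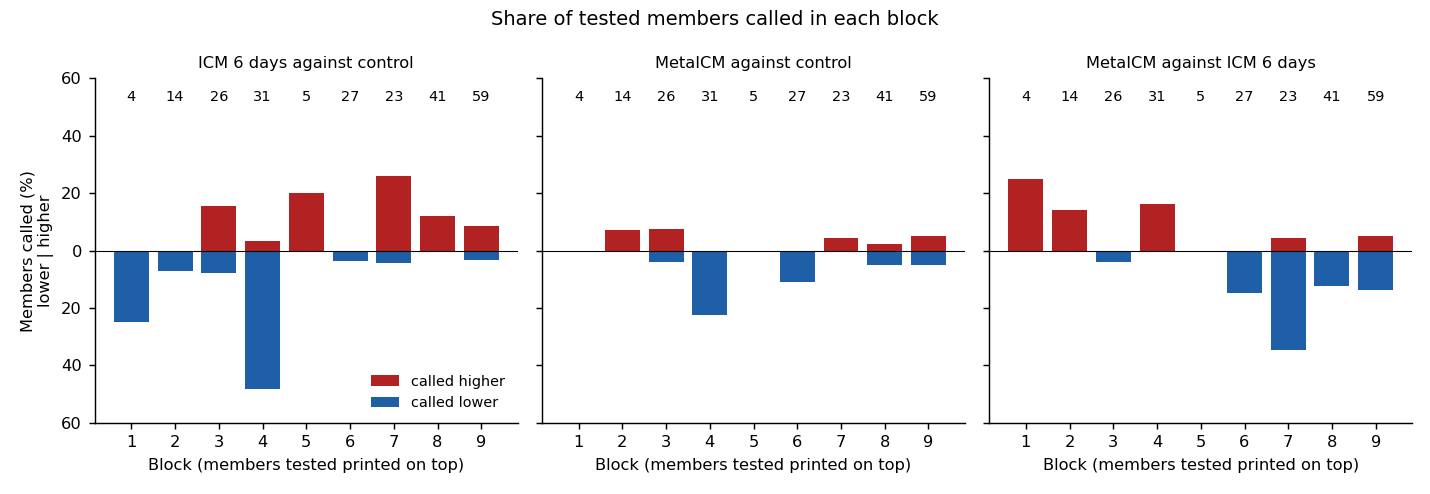
Share of the tested members of blocks 1 to 9 (x axis) that were called higher (red, up) or lower (blue, down), in percent, in 3 comparisons, with the number tested along the top. At 6 days block 4 has 48.4% lower and block 7 has 26.1% higher, and in MetaICM against ICM 6 days block 7 has 34.8% lower (8 genes, of which 2 remain past the threshold with GC centring).

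Between 3 and 6 days few members differed. Of 237 tested, 6 were higher at 6 days (ZNF823, ZNF30, ZNF781, ZNF577, ZNF616 and ZNF547) and 3 lower (ZNF358, ZNF93 and ZNF628), where 3.53% and 4.54% of all genes tested were. The median log2FC was 0.019 for the members and -0.008 for all genes. The 6 higher genes became 3 without 3-day replicate 1 and 1 without 6-day replicate 2. ZNF93 alone of the 6 named by the rule was called under every alternative tried. ZNF781 had 0.89 (SE 0.26, adjusted p = 0.0199) and was 0.75 without 3-day replicate 1 (adjusted p = 0.0724), 0.94 without 6-day replicate 1 (adjusted p = 0.0679) and 0.84 without 6-day replicate 2 (adjusted p = 0.119). ZNF823 had 0.77 (SE 0.22, adjusted p = 0.0186) and was 0.66 without 3-day replicate 1 (adjusted p = 0.0528) and 0.62 without 6-day replicate 2 (adjusted p = 0.203). ZNF30 had 0.68 (SE 0.22, adjusted p = 0.032) and was 0.65 without 3-day replicate 1 (adjusted p = 0.0649), 0.78 without 6-day replicate 1 (adjusted p = 0.0732) and 0.59 without 6-day replicate 2 (adjusted p = 0.234). On the lower side, ZNF358 had -0.83 (SE 0.21, adjusted p = 0.00801) and was -0.80 without 6-day replicate 2 (adjusted p = 0.0607). ZNF628 had -0.63 (SE 0.21, adjusted p = 0.0395) and was -0.55 without 3-day replicate 1 (adjusted p = 0.111), -0.71 without 6-day replicate 1 (adjusted p = 0.121) and -0.55 without 6-day replicate 2 (adjusted p = 0.25).

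MetaICM was set against control and against 6 days of ICM. Against control, 8 of 238 members were higher and 16 lower, where 7.41% and 8.99% of all genes tested were. The median log2FC was -0.16 for the members, with 167 of 238 below 0, and -0.001 for all genes, and with GC centring it was -0.047 for the members. It was -0.181 for zinc finger genes elsewhere and 0.259 for the other genes of chromosome 19. Block 4 gave 7 of the 16 lower genes (ZNF93, ZNF90, ZNF66, ZNF85, ZNF257, ZNF492 and ZNF254). The 7 became 2 without MetaICM replicate 2, 3 without MetaICM replicate 1, 4 without control replicate 2 and 13 without control replicate 1, and 4 with DESeq2 or with GC centring. ZNF66 had a log2FC of -1.36 (SE 0.19, adjusted p = 0.00133) and ZNF93 one of -1.08 (SE 0.16, adjusted p = 0.00158). ZNF833P had -1.52 (SE 0.45, adjusted p = 0.0309) and was -0.92 without MetaICM replicate 2 (adjusted p = 0.315). On the higher side ZNF702P had 1.02 (SE 0.20, adjusted p = 0.00566) and was called under every alternative tried. ZNF524 had 0.93 (SE 0.27, adjusted p = 0.0288) and was 0.76 without MetaICM replicate 1 (adjusted p = 0.227) and 1.11 without MetaICM replicate 2 (adjusted p = 0.0749). ZNF358 had 0.91 (SE 0.21, adjusted p = 0.0112) and was 0.82 without MetaICM replicate 1 (adjusted p = 0.0964). The 16 lower genes became 5 without MetaICM replicate 2, 7 without MetaICM replicate 1 and 41 without control replicate 1, and the 8 higher genes became 1 without MetaICM replicate 1, 2 without MetaICM replicate 2 and 14 without control replicate 1.

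Against 6 days of ICM, 12 of 238 members were higher in MetaICM and 27 lower, where 15.7% and 12.0% of all genes tested were. The 12 higher became 19 without 6-day replicate 2. The higher ones included ZNF730, ZNF492, ZNF93, ZNF726 and ZNF724 of block 4. None of that block was lower by edgeR or DESeq2 with all libraries (1 was without MetaICM replicate 1, and 1 in thinned libraries), and 3 had an unadjusted p under 0.05 with a log2FC below 0. ZNF730 had 2.43 (SE 0.30, adjusted p = 6.46e-07), ZNF492 2.29 (SE 0.43, adjusted p = 0.000135) and ZNF93 1.67 (SE 0.18, adjusted p = 1.43e-07). ZNF730 and ZNF93 were called under every alternative tried. ZNF492 was not tested under a filter of at least 10 counts in every library, and was called under the other alternatives. Block 7 had 8 of its 23 tested genes lower (34.8%), among them ZNF226, ZNF229 and ZNF235. With GC centring 2 of the 8 stayed past a log2FC of 0.6, ZNF226 (-0.65) and ZNF235 (-0.71), and ZNF229 had -0.53. The 8 became 5 in libraries thinned to the smallest. ZNF235 had -0.87 (SE 0.16, adjusted p = 0.000116) and was -0.60 without MetaICM replicate 1 (adjusted p = 0.00144). ZNF781 in block 6 (-1.44, SE 0.24, adjusted p = 3.81e-05) and ZNF582 in block 9 (-1.16, SE 0.21, adjusted p = 8.37e-05) were called under every alternative tried. Of the members lower at 6 days than in control, 9 were higher in MetaICM than at 6 days, and of those higher at 6 days 12 were lower. Both comparisons use the 6-day libraries, and the same counts were not made over all genes. These counts therefore show nothing particular to the members. The cell cycle genes MKI67, TOP2A, CDK1, CCNB1 and HMGB2 were also higher in MetaICM than at 6 days, and their part was not tested.

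GC content moved with the MetaICM values. Across all genes tested, Spearman's rho between exon GC content and log2FC was 0.33 for MetaICM against control and 0.35 for MetaICM against 6 days, and across the members it was 0.44 and 0.14 (n = 238 genes, which share libraries and base composition). At 3 and 6 days against control it was 0.08 and -0.06 across all genes, 0.33 (n = 237) and 0.2 (n = 238) across the members, and 0.21 (n = 206) and 0.0 (n = 207) across the members outside block 4. At 6 against 3 days it was -0.25 across all genes and -0.15 across the members. When the median log2FC of tested genes of like GC content was subtracted, an alternative added after the data were seen, the members split into 2 higher and 9 lower against control, where ZNF702P and ZNF491 remained higher, and into 14 higher and 11 lower against 6 days. The same step left 12 lower genes of block 4 at 3 days and 15 at 6 days, and took its lower genes in MetaICM against control from 7 to 4. It took the genes of block 4 higher in MetaICM than at 6 days from 5 to 9. Only the log2FC was centred and the adjusted p was kept from the uncentred fit, so these calls are no test of the centred values.

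**Figure D5:**
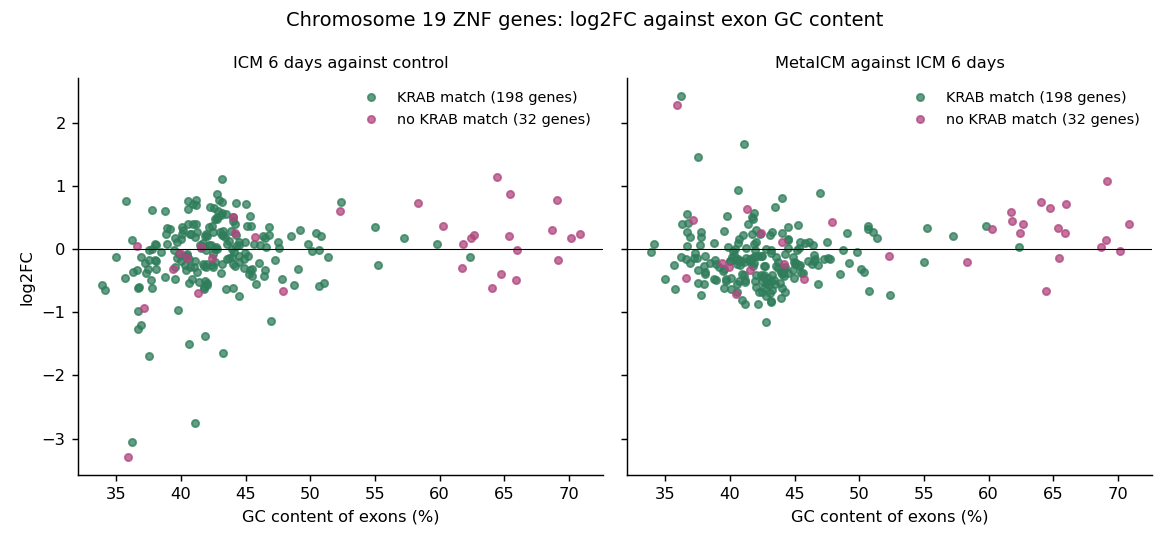
log2FC (y axis) against exon GC content in percent (x axis) of the tested members with a coding sequence, at 6 days against control (left) and in MetaICM against 6 days (right). Members with a KRAB match lie mostly near the median of 42.3% GC, members without one have a median of 61%, and the largest falls at 6 days lie at low GC content.

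A match to the KRAB box before the first finger, by a letter pattern on the coding sequence of GENCODE, was found in 209 of 246 members with such a sequence. The patterns for boxes and fingers are coarse and can miss diverged or shortened ones, and none of the fingers of ZNF274 was matched. The remaining 37 had a higher GC content, with a median of 61% among those tested at 6 days against 42.3%. At 6 days, 17 of 198 members with a match were higher and 18 lower, and of 32 without one 5 were higher and 4 lower, where 13.3% and 17.2% of all genes tested were. Outside block 4 the split with a match was 17 higher and 5 lower of 170. In MetaICM against control, 0 of 198 members with a match were higher and 13 lower, while 7 of 32 without one were higher and 2 lower, where 7.41% and 8.99% of all genes tested were. By DESeq2 the count with a match was also 0, and 1 of the 198 had an unadjusted p under 0.05 with a log2FC above 0. The 7 are ZNF358, ZNF653, ZNF491, ZNF428, ZNF579, ZNF524 and ZNF497, and 6 of them have a GC content of 60.2% to 69.2%, so the KRAB match and GC content cannot be told apart here.

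A list of 28 genes for KRAB co-repression and heterochromatin was fully tested. At 3 days 6 were lower than in control (CBX5, DNMT1, DNMT3B, SUV39H1, SUV39H2 and UHRF1) and at 6 days 8 (with CBX3 and EHMT1), where 13.2% and 17.2% of all genes tested were lower, with a median log2FC of -0.11 and -0.21. None was higher at either time by edgeR or DESeq2, where 8.85% and 13.3% of all genes tested were higher by edgeR. At each time 1 of the 28 had an unadjusted p under 0.05 with a log2FC above 0. TRIM28, the co-repressor that KRAB binds, had 292 and 235 CPM in control, 255 and 237 CPM after 3 days, 230 and 241 CPM after 6 days and 304 and 321 CPM in MetaICM. Its ICM libraries overlapped control, and its log2FC was -0.17 (SE 0.12, adjusted p = 0.275) at 6 days. SETDB1 had -0.14 (SE 0.11, adjusted p = 0.347). UHRF1, which guides maintenance DNA methylation, had -2.91 (SE 0.18, adjusted p = 9.55e-07) and the HP1 gene CBX5 -0.93 (SE 0.15, adjusted p = 0.000665). In MetaICM against 6 days, 4 of the 28 were higher (DNMT1, DNMT3B, SUV39H1 and UHRF1), where 15.7% of all genes tested were. Against control 1 of the 28 was lower (CBX5), where 8.99% of all genes tested were.

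Of 18 members chosen for a described function, 17 were tested. At 3 days ZNF274, ZNF580 and ZNF628 were higher and ZNF331, ZNF85 and ZNF93 lower, where 8.85% and 13.2% of all genes tested were. At 6 days ZNF274 and ZNF580 were higher and ZNF85 and ZNF93 lower, where 13.3% and 17.2% of all genes tested were. The imprinted gene ZNF331 had 18.6 and 22.1 CPM in control, 12 and 13.2 CPM after 3 days, 12.9 and 14.7 CPM after 6 days and 15.8 and 18.8 CPM in MetaICM. All treated libraries but 1 of MetaICM lay below both control libraries. Its 3-day log2FC was -0.70 (SE 0.17, adjusted p = 0.0102), and the call was lost at -0.59 without control replicate 2 (adjusted p = 0.0159) and -0.63 without 3-day replicate 1 (adjusted p = 0.113). ZNF350 (ZBRK1), a partner of BRCA1, had 0.00 (SE 0.18, adjusted p = 0.991) at 6 days. ZNF146 and ZNF671 had 0.04 (SE 0.11, adjusted p = 0.788) and 0.08 (SE 0.15, adjusted p = 0.714). ZNF224, ZNF160, ZNF175, ZNF568 and ZNF382 had 0.40, 0.30, 0.23, 0.12 and 0.05, and none was called. ZNF296 had 4 to 14 counts in a library and was not tested.

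Close relatives limit what the counts can show. Exonic 50-base windows recur on chromosome 19 in 2.32% of the windows of the median member and in more than 10% for 33 members, and 29 members share exon bases with another gene, where reads were not counted for either. Without these members, the lower calls were 22 at 3 days and 22 at 6 days, of which 10 and 13 in block 4, and the higher calls 11 and 23. In MetaICM against control the lower calls without them were 10. Counting did not use strand, so antisense transcripts cannot be told apart from the genes.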

How the data were processed

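Factory RNA-Seq libraries of IMR90 were analysed in 4 groups of 2. The authors aligned read pairs with STAR 2.6.0c to hg19 and counted them over refGene exons with featureCounts 1.6.3, without strand, keeping properly placed pairs. The deposited values are these raw counts per gene, not normalized. Reads in exons shared by genes, or placed at several sites, were not counted, so close relatives lose reads.

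Each comparison was fitted on its 4 libraries with edgeR 4.0.16 (R 4.3.3), TMM factors, filterByExpr with a count minimum of 10, the quasi-likelihood test and Benjamini-Hochberg adjustment over all genes tested. SE is the absolute log2FC divided by the square root of F. CPM uses TMM-scaled totals over 8 libraries. The scripts were tested on simulated data. DESeq2 1.42.0, other scalings and filters, thinning, a replicate block and each library left out were tried. GC centring, removal of members with shared or repeated exons, and the counts of block 4 under every alternative were added after the data were seen. Tables were handled with pandas 2.3.3 and numpy 2.4.6.

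The members and gene lists were chosen with earlier results of these data known. Genes were named by rule: the 10 called members with the largest log2FC in each direction at 3 and 6 days, and the 3 such in the other comparisons, whose libraries did not overlap and which had at least 10 counts in each library of the higher group, the leading member of each block, and 18 characterised members. Fingers and KRAB were searched in GENCODE coding sequence on GRCh37, by a pattern widened after its first matches.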

Additional observations from a re-analysis of the deposited data

How the results depend on the processing

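Against control, the lower genes of block 4 numbered 12 at 3 days and 15 at 6 days, and stayed within 9 to 13 and 10 to 18 under the alternatives of tool, scaling, filter, thinning, replicate block, GC centring and left-out library. In MetaICM against control its 7 lower genes became 4 with DESeq2 and with GC centring, and ran from 2 to 13 with 1 library left out. The 6 higher genes of block 7 at 6 days became 3 with DESeq2 and ran from 2 to 5 with 1 library left out, and its 8 lower genes in MetaICM against 6 days became 2 with GC centring. With DESeq2 the higher members were 5 at 3 days, 2 at 6 against 3 days and 3 in MetaICM against control, and the lower members 1 at 6 against 3 days and 10 in MetaICM against control. With an adjusted p of 0.01 the members were 4 higher and 14 lower at 3 days, 14 higher at 6 days, 2 higher at 6 against 3 days, and 1 higher and 8 lower in MetaICM against control. With GC centring they were 1 lower at 6 against 3 days, 2 higher and 9 lower in MetaICM against control, and 11 lower in MetaICM against 6 days. Thinned libraries gave 5 higher in MetaICM against control, and without members with shared or repeated exons 10 were lower there. The cause of these shifts was not tested.

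With 1 library left out, the members ran at 3 days from 4 to 12 higher and 14 to 25 lower, at 6 days from 13 to 24 higher and 12 to 33 lower, at 6 against 3 days from 1 to 6 higher and 2 to 4 lower, in MetaICM against control from 1 to 14 higher and 5 to 41 lower, and in MetaICM against 6 days from 9 to 19 higher and 23 to 32 lower. A group left with 1 library was assumed to vary like the other.

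Same-numbered libraries did not deviate together in every pair of groups, with correlations from -0.17 to 0.28, so the numbers were not taken to pair the libraries. With a replicate block the members were 15 higher and 27 lower at 3 days, 25 and 25 at 6 days, 6 and 3 at 6 against 3 days, 8 and 20 in MetaICM against control, and 12 and 27 in MetaICM against 6 days. Of the values of 53 named genes over all alternatives, 161 lost the call, 53 gained one and none that was called reversed. Another 99 values, not called, changed sign, and 3039 kept their direction and side of the threshold. With 2 libraries a group and 237 to 241 members at 10 or more counts, members with few counts carry the widest errors.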
